A study of Mus musculus with 14 samples.

Results

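The genes described are the translation factors and aminoacyl-tRNA synthetases of mouse natural killer (NK) cells, 93 of the 10210 genes listed in the NK count table. They were chosen by symbol alone: eukaryotic initiation factors (Eif1 to Eif6 with their kinases, exchange factors and binding proteins), elongation factors (Eef1 and Eef2 with the enzymes that modify them), the release factor Etf1, and synthetases with a symbol of the form Gars or Gars2. This symbol rule was set with earlier results of these data known. By role, 47 belonged to initiation, 15 to elongation and release and 31 to the synthetases. The study sequenced mRNA 3' ends in bulk from 11 NK libraries. Of these, 3 came from spleens of healthy BALB/C mice, 4 from spleens of BALB/C mice that carried a 4T1-GFP tumour and 4 from 4T1 tumours. The 4T1 line derives from a mammary carcinoma of BALB/c mice, and 100000 of its cells, labelled with green fluorescent protein (GFP), were injected into a mammary fat pad of females aged 8 weeks. The healthy mice are given the same age of 8 weeks at the start. The time from injection to collection is not given in the sources used here. An NK isolation kit (Miltenyi), which the labels name with the spleen preparation, came before sorting, and cells of both tissues were sorted to lack GFP, EPCAM, CD3, CD31 and CD14 and to carry CD45 and NKp46. Tumours were digested with collagenase A and DNase for 20 min at 37 °C, whereas spleens were crushed and their red cells lysed for 5 min on ice, so tissue and handling cannot be told apart in a comparison of tumour with spleen. The series states independent replicates without saying whether each was a separate animal, so p-values measure the spread between these samples.

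Translation begins when eIF2 brings the initiator tRNA to the small ribosomal subunit, the eIF4 factors bind the mRNA cap and unwind the leader, and eIF1 and eIF5 control recognition of the start codon. Stress kinases (the Eif2ak genes) phosphorylate eIF2 and block its recycling by eIF2B, which lowers general initiation while raising translation of Atf4. The factor eEF1A then delivers tRNAs charged by the synthetases, eEF2 moves the ribosome along, and eRF1, the product of Etf1, releases the finished chain. NK cells are known to raise protein synthesis on activation, in part through mTORC1 and Myc.

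Total counts per library ran from 559688 to 1966963, and the level that 3 counts give, taken as the limit that a count of 0 allows, was 1.54 to 4.62 CPM, the unit for counts after TMM scaling of library size; this limit covers counting error only. Of the members, 88 had enough counts to be tested. Eif5a2, Eef1aknmt, Eif1ax, Mars2 and Nars2 were not tested and had at most 10 counts in any library. All 12 NK markers on a fixed list were listed, with a summed level of 23720 to 30080 CPM in tumour libraries, 31870 to 36070 in tumour-bearing spleens and 31360 to 34330 in healthy spleens. Some markers of other cells differed between the groups, and the count table holds only part of each of their lists. The 8 listed macrophage and monocyte genes summed to 174 to 418 CPM in tumour libraries, 83.2 to 102 in tumour-bearing spleens and 72.4 to 96.3 in healthy spleens. The 4 listed neutrophil genes summed to 59.8 to 158 CPM, 0.723 to 13.4 and 0.535 to 7.71 in the same order, and Epcam with Cdh1 to 27.7 to 54.9, 0 to 2.79 and 0 to 3.08. Pecam1, which encodes the sort marker CD31, was at 139 to 202, 74.8 to 94.2 and 41.6 to 80.9 CPM. Fibroblast genes overlapped between all groups, with sums of 5.8 to 30.3, 3.05 to 14.5 and 6.6 to 18.7 CPM in the same order. The B cell gene Cd79b was at 1.45 to 3.8, 3.91 to 6.1 and 3.21 to 9.25 CPM. T cell and dendritic cell genes differed between the spleens: 3 listed T cell genes summed to 99.4 to 149 CPM in tumour-bearing and 43.2 to 79.2 in healthy spleens (64.7 to 106 in tumours), and Zbtb46 with Itgax to 245 to 324 and 149.5 to 177 (178 to 248 in tumours). The part of these markers in the results below was not tested. In bulk RNA, fewer cells with a transcript and less of it per cell cannot be told apart.

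As a share of the counts of a library, elongation and release members took 0.896% to 0.98% in the tumour, 0.683% to 0.758% in tumour-bearing spleens and 0.666% to 0.752% in healthy spleens. Initiation members took 0.798% to 0.871%, 0.749% to 0.763% and 0.736% to 0.757% in the same order. For these 2 classes every tumour library lay above every spleen library. Synthetases took 0.15% to 0.173% of counts in the tumour, 0.169% to 0.174% in tumour-bearing spleens and 0.169% to 0.184% in healthy spleens, so their groups overlapped. These shares describe sums led by a few abundant transcripts and were not tested.

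**Figure D1:**
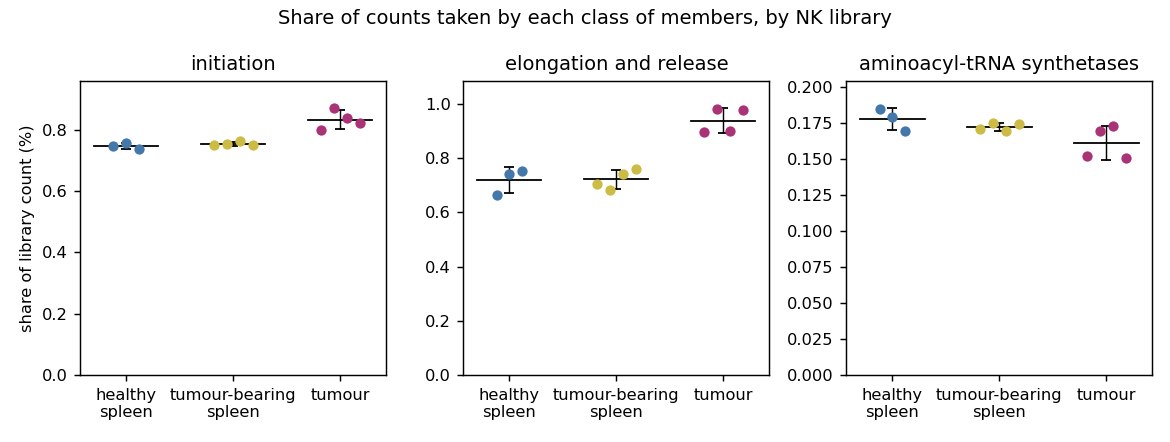
Share of each NK library's counts (%) taken by initiation members (left), elongation and release members (middle) and synthetases (right) in healthy spleen, tumour-bearing spleen and tumour. Points are libraries, horizontal lines are group means and vertical bars are SD; the 4 tumour libraries lie above all spleen libraries in the first 2 panels and overlap them in the third.

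The comparison of tumour NK cells with spleen NK cells of tumour-bearing mice asks how the cells differ inside and outside the tumour of the same model. In this comparison 12 of the 88 tested members were higher in the tumour and 5 were lower (quasi-likelihood test of edgeR, threshold 0.05 on p-values adjusted by Benjamini-Hochberg across every gene tested, as for each adjusted p below). Of all 8471 genes tested, 15.8% were higher and 13.2% lower, so the members' share of higher calls was near that of all genes. All libraries of the 2 groups were apart for 18 members with the tumour higher and 7 with it lower, beside 16.5% and 13.3% of all genes, and 28 members had an unadjusted p under 0.05, beside 39.4%. By role, 7 of 46 initiation members were higher and 2 lower, 5 of 13 elongation and release members were higher and 1 lower, and 0 of 29 synthetases were higher and 2 lower. The median log2 fold change was 0.18 for initiation, 0.09 for elongation and release and −0.03 for synthetases, beside 0.0014 for all genes. With upper-quartile scaling, which lowered the median of all genes to −0.098, the members split into 10 higher and 7 lower, and all genes into 1091 higher and 1530 lower against 1338 and 1115 with TMM. The median of elongation and release members was then −0.0053, and 8 of the 13 lay above the median of all genes, as with TMM.

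**Figure D2:**
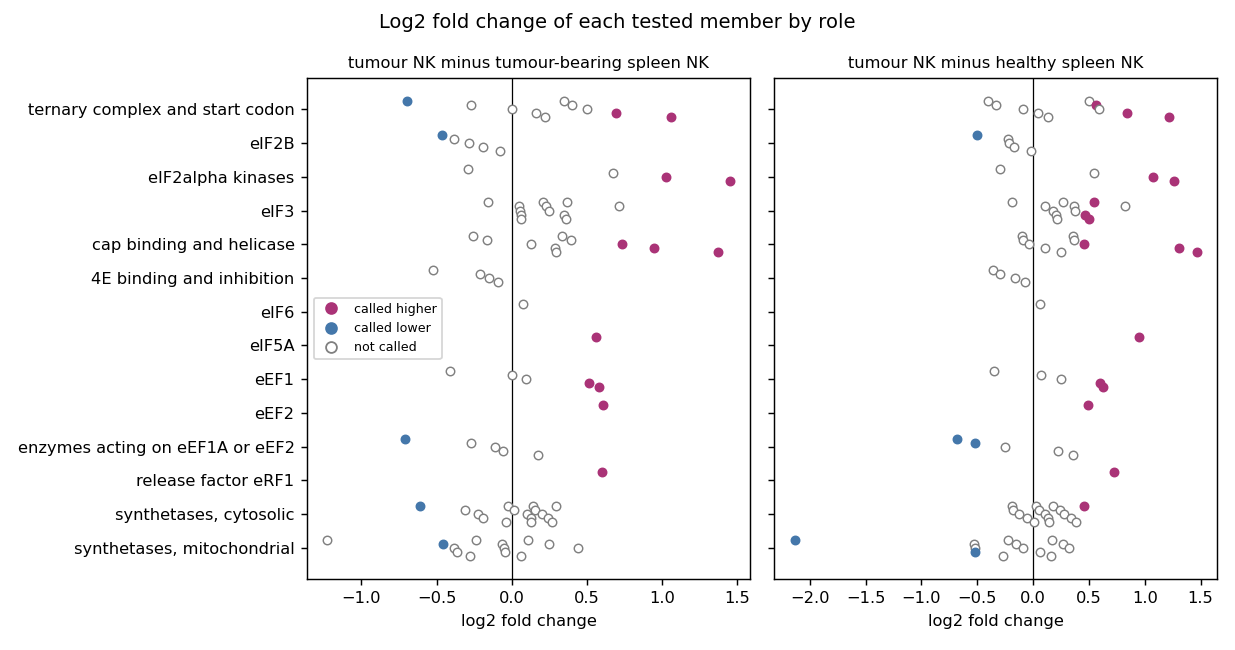
Log2 fold change (x axis) of each of the 88 tested members, in rows by role, for tumour minus tumour-bearing spleen (left) and tumour minus healthy spleen (right), which share the tumour libraries. Filled points passed the adjusted threshold, purple for higher and blue for lower. In the left panel kinases of eIF2, helicase and cap-binding factors and elongation factors hold most of the called higher members, and the synthetase rows hold 0. The mitochondrial synthetase row reaches −2.14 in the right panel.

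Among factors of start codon recognition and the ternary complex, 2 of 10 tested were higher and 1 lower, beside 15.8% and 13.2% of all genes. Eif1, which keeps the scanning ribosome open until the start codon is found, was at 878, 874 and 860 CPM in healthy spleens, at 1091, 955, 957 and 839 in tumour-bearing spleens and at 1560, 1581, 1493 and 1587 in tumours. All 4 tumour libraries lay above all spleen libraries, and the log2 fold change against tumour-bearing spleen was 0.70 (SE 0.129, adjusted p 0.000403), a 1.62-fold difference. Its paralog Eif1b went the other way. Eif1b was at 162, 176, 168 and 169 CPM in tumour-bearing spleens and at 116, 97.1, 83.6 and 121 in tumours, with no overlap, and fell by 0.70 on the log2 scale (SE 0.154, adjusted p 0.00196). Its healthy spleens, at 92.5, 143 and 149 CPM, overlapped the tumour libraries. The log2 ratio of Eif1 to Eif1b, which does not depend on scaling, was 3.72 to 4.16 in tumours, 2.32 to 2.75 in tumour-bearing spleens and 2.53 to 3.25 in healthy spleens.

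Eif5, which makes eIF2 hydrolyse its GTP at the start codon, was at 140, 114, 74.1 and 73.8 CPM in tumour-bearing spleens and at 195, 248, 209 and 187 in tumours. The groups did not overlap, and the log2 fold change was 1.06 (SE 0.191, adjusted p 0.000382). The spleen libraries were themselves divided: tumour-bearing replicates 1 and 2 and, in the healthy group, replicate 1 (177 CPM) were each above the rest of their group. This division runs across the spleen groups for many genes, and the labels give no batch for it. Healthy replicate 1 was also the NK library with the lowest total count (559688), with 456 listed genes at 0. Against tumour-bearing spleens 1 and 2 alone the log2 fold change of Eif5 was 0.72 (adjusted p 0.00741), and against 3 and 4 alone it was 1.46 (adjusted p 1.07e-05). Eif1a, which opens the scanning ribosome together with eIF1, had a log2 fold change of 0.40 (adjusted p 0.238). Eif2s1 and Eif2s2, the alpha and beta subunits of eIF2, had under 15 CPM in every library and were not called, with log2 fold changes of 0.22 and 0.0036.

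**Figure D3:**
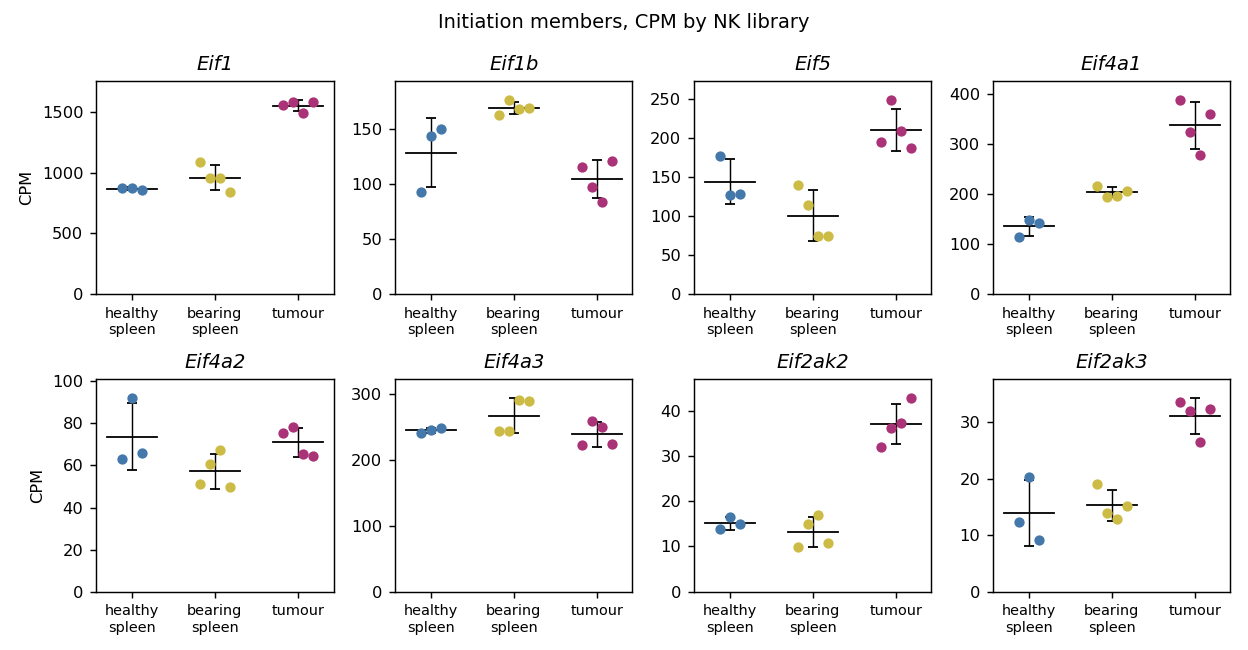
CPM (y axis, from 0) of 8 initiation members in each NK library by group, with group means as horizontal lines and SD as vertical bars. Eif1, Eif5, Eif4a1, Eif2ak2 and Eif2ak3 have every tumour library above every spleen library, Eif1b has every tumour library below every tumour-bearing spleen library, and Eif4a2 and Eif4a3 overlap between groups.

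Of the 4 eIF2 kinases, 2 were higher in the tumour, beside 15.8% of all genes. Eif2ak2 (chr17:78852564-78882573 on GRCm38, minus strand) encodes PKR, an interferon-induced kinase that senses double-stranded RNA. It was at 13.9, 16.6 and 14.9 CPM in healthy spleens, at 9.91, 15.1, 17 and 10.9 in tumour-bearing spleens and at 32, 36.2, 37.3 and 42.8 in tumours. No tumour library overlapped a spleen library, and the log2 fold change of 1.45 (SE 0.218, adjusted p 4.18e-05), or 2.74-fold, was the highest of any member in this comparison. Eif2ak3, which encodes the endoplasmic reticulum stress kinase PERK, was at 19.1, 14, 12.9 and 15.2 CPM in tumour-bearing spleens and at 33.6, 31.9, 26.5 and 32.3 in tumours. It also separated fully, with a log2 fold change of 1.03 (SE 0.242, adjusted p 0.00323). Eif2ak1, the haem-regulated kinase, had a log2 fold change of −0.29 (95% interval −0.65 to 0.064, adjusted p 0.214). Eif2ak4, or GCN2, which senses uncharged tRNA, had 0.68 (interval −0.068 to 1.42, adjusted p 0.166). Its 4 tumour libraries held 9.84, 18.8, 9.02 and 9.51 CPM, few counts each.

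The start of Eif2ak2 is shown because it holds a match to the interferon-stimulated response element, searched as GAAA, any 2 bases and GAAA on either strand. Among 27025 genes with a promoter window of 250 bases before and 50 after the start (RefSeq, GRCm38.p6), 3.99% held this match, and 5 of the 69 members with a window did (7.25%): Eif2ak2, Eif2s1, Eif2s3x, Eif3a and Qars. The stretch lies at chr17:78882535-78882564 on the minus strand, inside the first transcribed bases, and capitals mark the match.
Eif2ak2: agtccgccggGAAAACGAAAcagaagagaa
Of those 5 members, Eif2ak2 was called higher and the others were not called against tumour-bearing spleen. The letters are a description and no binding was measured.

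The exchange factor eIF2B, the target of the phosphorylated eIF2, had 5 tested subunits, and all 5 had negative log2 fold changes under TMM, upper-quartile and RLE scaling. Of these, 1 was called, beside 29% of all genes in either direction. Eif2b1 was at 59.5, 58.1, 53.5 and 65.1 CPM in tumour-bearing spleens and at 45.1, 47.8, 40.3 and 39 in tumours, and fell by 0.46 on the log2 scale (SE 0.16, adjusted p 0.0364). The groups did not overlap, but the call was lost in 8 of 16 alternatives (highest adjusted p 0.124). Eif2b5, the catalytic subunit, had −0.38 (adjusted p 0.0594) with groups that did not overlap either. The 4 genes of eIF4E binding and inhibition, Eif4ebp1, Eif4ebp2, Eif4ebp3 and Eif4enif1, had log2 fold changes from −0.52 to −0.091. Of these edgeR called 0 of 4, also at an unadjusted p under 0.05, beside 29% and 39.4% of all genes. Eif4ebp1, whose product blocks eIF4E until mTORC1 phosphorylates it, had the lowest of these values (interval −1.06 to 0.012, adjusted p 0.136).

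Among cap-binding and helicase factors, 3 of 10 were higher and 0 lower, beside 15.8% and 13.2% of all genes. Eif4e, the gene of eIF4E itself, is not among the members listed and is not analysed here. Eif4a1 (chr11:69666936-69672423, minus strand), the DEAD-box helicase that unwinds mRNA leaders, was at 114, 148 and 143 CPM in healthy spleens, 216, 195, 195 and 207 in tumour-bearing spleens and 387, 325, 277 and 359 in tumours. The 3 groups formed 3 steps with no overlap, and the log2 fold change against tumour-bearing spleen was 0.73 (SE 0.132, adjusted p 0.000312). Eif4a2, its paralog, had 0.29 (adjusted p 0.196). Eif4a3, the helicase of the exon junction complex, had −0.16 (adjusted p 0.333). The log2 ratio of Eif4a1 to Eif4a3 was 0.15 to 0.80 in tumours, −0.57 to −0.18 in tumour-bearing spleens and −1.08 to −0.73 in healthy spleens. Eif4e3, a member of the cap-binding eIF4E family, was at 15.4, 22.5 and 14.9 CPM in healthy spleens, at 29.7, 27.4, 20.1 and 28.9 in tumour-bearing spleens and at 55.7, 56.5, 34.9 and 59 in tumours. Tumour replicate 3 was the lowest tumour library and still lay above every spleen library, and the log2 fold change was 0.95 (SE 0.213, adjusted p 0.00228).

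Eif4g2, a scaffold related to eIF4G that does not bind eIF4E, was called with a log2 fold change of 1.37 (SE 0.499, adjusted p 0.0452) on few counts. Its counts were 6, 3, 6 and 1 in tumour-bearing spleens and 6, 7, 10 and 7 in tumours, and the call was lost in 11 of 14 alternatives. The main scaffold Eif4g1 had −0.26 (adjusted p 0.225). Eif4a1, Eif4e3 and Eif5 are among 686 genes that stand out of alphabetical order in the deposited table. Their names were used as deposited, and whether each name belongs to its counts was not settled for single genes.

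The promoter stretches of Eif4a1 and Eif1b are shown because both hold an E-box, CACGTG, the palindrome bound by Myc with Max, yet the genes moved in opposite directions. This match occurred in 8.09% of the 27025 genes and in 16 of the 69 members (23.2%). Of members called higher against tumour-bearing spleen with a window, 3 of 9 held it, as did 1 of 3 called lower and 10 of 52 not called. Capitals mark the E-box in chr11:69672574-69672633 (minus strand) and chr9:120492570-120492599 (plus strand). The stretch of Eif1b precedes a RefSeq start that lies inside the annotated gene span (chr9:120492232-120495330).
Eif4a1: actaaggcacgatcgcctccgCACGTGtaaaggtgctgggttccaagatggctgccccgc
Eif1b: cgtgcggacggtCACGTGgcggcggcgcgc
Myc itself was higher in tumours than in tumour-bearing spleens, with a log2 fold change of 0.83 (SE 0.206, adjusted p 0.00473). Max was higher too, with 0.40 (SE 0.118, adjusted p 0.0156). Binding to the E-box was not measured, and whether Myc or Max acts on these genes was not tested.

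The eIF3 complex, the scaffold that holds the small subunit, the mRNA and the other factors together, had 12 tested subunits. edgeR called 0 of 12 against tumour-bearing spleen, beside 29% of all genes in either direction, and 4 had an unadjusted p under 0.05, beside 39.4%. Positive values were found for 11 with TMM but 7 with upper-quartile scaling. Under TMM, upper-quartile and RLE scaling alike, 11 of the 12 lay above the median of all genes. The median log2 fold change of the subunits with TMM was 0.22. Eif3f was at 636, 615, 656 and 761 CPM in tumour-bearing spleens and at 767, 819, 853 and 949 in tumours, which did not overlap (log2 fold change 0.35, adjusted p 0.0689). Eif3h likewise did not overlap, with 503 to 691 CPM against 753 to 831 (0.36, adjusted p 0.0814). Eif3i and Eif3k, which also rank among the most counted initiation members, had 0.047 and 0.060. Eif3a, the largest subunit, had 0.23 (adjusted p 0.391). Among eIF3 subunits, Eif3e had the widest gap across the division of the spleens, at 256 and 219 CPM in tumour-bearing spleens 1 and 2 and at 150 and 91.9 in 3 and 4, beside 229 to 351 in tumours. Its log2 fold change was 0.31 (adjusted p 0.458) against the first pair and 1.23 (adjusted p 0.0149) against the second, and 0.71 (adjusted p 0.121) against all 4, where DESeq2 called it.

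In elongation and release, Eef1a1, Eef1b2, Eef2, Eif5a and Etf1 were higher, Eef1akmt1 was lower and the other 7 tested members were not called. Of all genes, 15.8% were higher and 13.2% lower. Eef1a1 (chr9:78478449-78489151, minus strand), which carries charged tRNA to the ribosome, was at 2073, 2567 and 2545 CPM in healthy spleens, 2752, 2208, 2543 and 2833 in tumour-bearing spleens and 3735, 3831, 3109 and 4110 in tumours. Every tumour library lay above every spleen library, with a log2 fold change of 0.52 (SE 0.149, adjusted p 0.0133). Eef1b2, which recharges eEF1A with GTP, was at 877, 801, 822 and 710 CPM in tumour-bearing spleens and at 1348, 1071, 1099 and 1282 in tumours, again without overlap (0.58, SE 0.14, adjusted p 0.00385; 0.51 and 0.0536 against tumour-bearing spleens 1 and 2 alone). The other genes grouped here under the name eEF1, which need not all belong to the exchange complex, did not follow. Eef1g, a structural subunit of the same exchange complex, was at 377, 356, 526 and 513 CPM in tumour-bearing spleens and at 433, 448, 514 and 495 in tumours, with full overlap and a log2 fold change of 0.094 (interval −0.28 to 0.47). Eef1d and Eef1e1 had 0.0047 and −0.41 and were not called either.

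Eef2 (chr10:81176631-81182498, plus strand), the translocase, was at 1342, 1525, 1703 and 1980 CPM in tumour-bearing spleens and at 2023, 2619, 2868 and 2490 in tumours. The lowest tumour library lay just above the highest spleen library, and the log2 fold change was 0.61 (SE 0.158, adjusted p 0.00657). Against tumour-bearing spleens 3 and 4 alone it was 0.41 (adjusted p 0.101). Eif5a (chr11:69916714-69921958, minus strand), which frees ribosomes stalled on difficult peptide bonds and is the known protein that carries hypusine, was at 667, 926 and 976 CPM in healthy spleens, 1021, 993, 1275 and 1209 in tumour-bearing spleens and 1616, 1597, 1711 and 1701 in tumours. Like Eif4a1 it formed 3 steps with no overlap, with 0.56 (SE 0.147, adjusted p 0.00748) against tumour-bearing spleen. Against replicates 3 and 4 alone Eif5a had 0.38 (adjusted p 0.0973), and Eef1a1 had 0.42 (adjusted p 0.0806). Etf1, the release factor, was at 52.6, 57.5, 54.1 and 31.8 CPM in tumour-bearing spleens and 63.1, 94.2, 79.4 and 65.6 in tumours, without overlap (0.60, SE 0.193, adjusted p 0.0239). Etf1 lost its call in 5 of 16 alternatives.

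**Figure D4:**
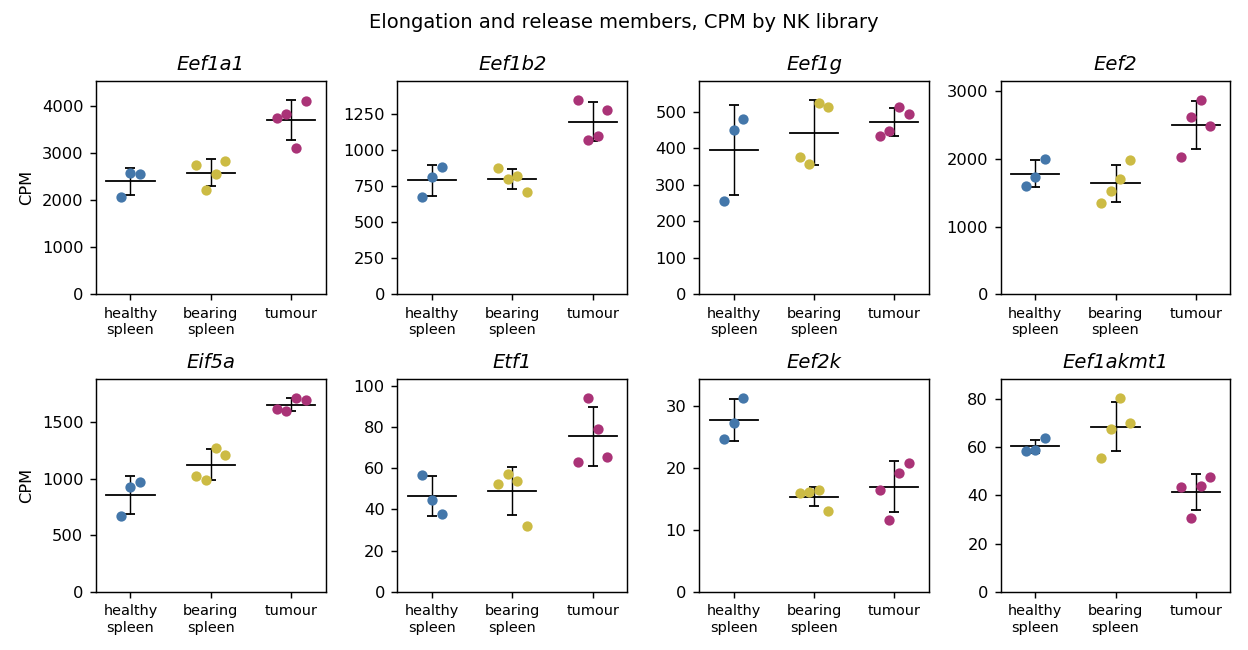
CPM (y axis, from 0) of 8 elongation and release members in each NK library by group, with group means as horizontal lines and SD as vertical bars. Eef1a1, Eef1b2, Eef2, Eif5a and Etf1 have every tumour library above every spleen library, Eef1g overlaps between groups, Eef2k is high in healthy spleens and Eef1akmt1 is lowest in tumours.

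Eef2 and Eif5a both hold an E-box before a RefSeq start, at chr10:81176571-81176630 (plus strand) and chr11:69921427-69921486 (minus strand). These stretches are shown beside those of Eif4a1 and Eif1b above, with the E-box in capitals. That of Eif5a lies inside the gene span given above, so it precedes an inner start and not the outer end of the gene.
Eef2: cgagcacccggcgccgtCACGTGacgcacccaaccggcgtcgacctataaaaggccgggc
Eif5a: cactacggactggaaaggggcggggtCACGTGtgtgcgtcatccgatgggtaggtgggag
Among the 11 elongation and release members with a window, 6 held the E-box, including Eef2k. The level of Eef2k did not differ between tumour and tumour-bearing spleen beyond error (log2 fold change 0.17, adjusted p 0.613). For these members too, binding was not measured and a role of Myc was not tested.

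Of the enzymes that act on eEF1A or eEF2, 1 of 5 tested was called, beside 29% of all genes in either direction. Eef1akmt1, a lysine methyltransferase of eEF1A, was at 55.6, 67.5, 80.3 and 70.2 CPM in tumour-bearing spleens and at 43.5, 30.4, 43.9 and 47.5 in tumours, without overlap, and fell by 0.71 on the log2 scale (SE 0.166, adjusted p 0.00317). Against tumour-bearing spleens 1 and 2 alone it had −0.56 (adjusted p 0.0595).

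Among the synthetases, which join each amino acid to its tRNA, edgeR called 0 of 29 higher against tumour-bearing spleen, beside 15.8% of all genes. DESeq2 also called 0 of 29 higher. In edgeR 4 had an unadjusted p under 0.05 in either direction, beside 39.4% of all genes. The 16 cytosolic members had log2 fold changes from −0.61 to 0.29 with a median of 0.11, and the 13 tested mitochondrial members from −1.23 to 0.44 with a median of −0.064. Wars, the interferon-inducible tryptophanyl-tRNA synthetase, was lower. It was at 102, 78.1 and 68.5 CPM in healthy spleens, at 102, 99.4, 123 and 110 in tumour-bearing spleens and at 66.4, 55.1, 93.2 and 64.7 in tumours. Tumour and tumour-bearing spleen did not overlap, whereas tumour and healthy spleen did, and the fall was 0.61 on the log2 scale (SE 0.167, adjusted p 0.00943). Against tumour-bearing spleens 1 and 2 alone Wars had −0.50 (adjusted p 0.103). Cars2, the mitochondrial cysteinyl-tRNA synthetase, was at 53.4, 72, 76.2 and 78.1 CPM in tumour-bearing spleens and at 57.4, 52.2, 49.3 and 45.6 in tumours, which overlapped through tumour-bearing replicate 1. Cars2 fell by 0.46 (SE 0.164, adjusted p 0.0428), a call lost in 9 of 16 alternatives. In the annotation its exons overlap those of Naxd on the other strand, and whether counting used strand is not given in the sources used here. The same limit holds for other named genes with such overlaps, among them Mars1 with Ddit3 and Eif2ak1 with Aimp2.

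**Figure D5:**
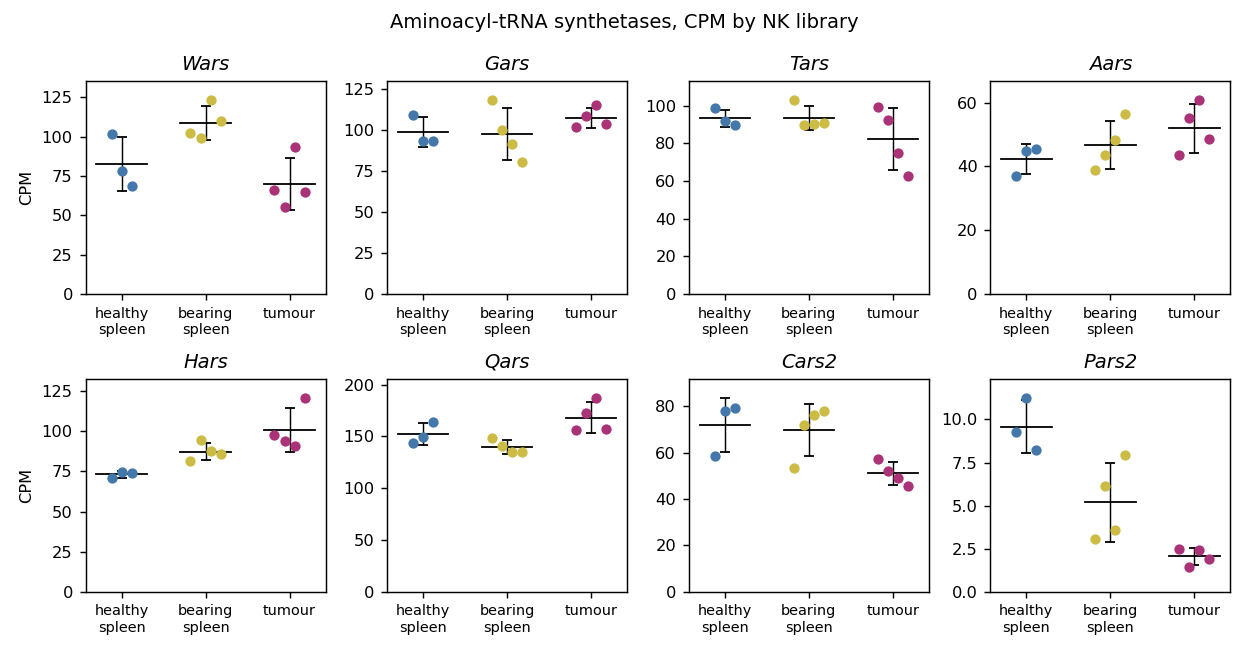
CPM (y axis, from 0) of 8 synthetases in each NK library by group, with group means as horizontal lines and SD as vertical bars. Wars and Cars2 are lower in tumours than in tumour-bearing spleens, Gars, Tars and Aars overlap between all groups, Hars is lowest in healthy spleens, Qars in tumours lies above tumour-bearing spleens but overlaps healthy spleens, and Pars2 is lowest in tumours at a level of few counts.

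Many cytosolic synthetase genes are known targets of ATF4, so they were read beside a list of 22 genes of the integrated stress response, of which 14 were tested. On that list 10 were higher in the tumour and 0 lower, with a median log2 fold change of 1.02, beside 15.8% and 13.2% of all genes. The list was chosen with earlier results of these data known, so its share is not an independent test. Atf4 was at 332, 373, 422 and 310 CPM in tumour-bearing spleens and at 770, 842, 685 and 740 in tumours (1.08, SE 0.133, adjusted p 4.06e-06). Slc3a2 and Slc7a5, which together form an amino acid transporter, rose by 1.84 and 2.27, and Ppp1r15a, whose product directs dephosphorylation of eIF2, rose by 2.24. Cebpb rose by 2.64 and Slc7a1, a cationic amino acid transporter, by 1.12, whereas Ddit3 had 0.24 and was not called. The serine synthesis genes Psat1 and Phgdh had −0.10 and −0.15 and were not called either. Asns, the asparagine synthetase, had 0 to 6 counts and was not tested, and Trib3, Chac1 and Slc7a11 are not analysed here. Several of these genes also respond to other stimuli.

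Of the synthetases with a match to the C/EBP-ATF response element, the composite site that ATF4 binds, Gars and Tars are shown because none of the set was called. The motif was searched as TGATGNAAN on either strand. It was held by 4.5% of the 27025 genes and by 5 of 21 synthetases with a window (23.8%): Aars, Gars, Iars, Tars and Yars. On the stress response list 7 of 19 genes with a window held it (36.8%). Herpud1 was the tested gene among these and was higher (log2 fold change 0.54). Atf4, Slc3a2, Slc7a5, Ppp1r15a, Cebpb and Slc7a1 were not among them. Binding was not measured, and a role of ATF4 was not tested. In the stretches at chr6:55037941-55038000 (plus strand) and chr15:11399659-11399718 (minus strand) capitals mark the match, which lies on the opposite strand to the gene.
Gars: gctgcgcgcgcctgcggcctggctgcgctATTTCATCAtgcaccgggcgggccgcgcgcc
Tars: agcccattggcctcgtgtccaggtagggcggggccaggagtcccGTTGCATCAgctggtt
Gars, the glycyl-tRNA synthetase, was at 118, 99.9, 91.6 and 80.3 CPM in tumour-bearing spleens and 102, 109, 115 and 104 in tumours, with a log2 fold change of 0.14 (interval −0.15 to 0.43). Tars, the threonyl enzyme, was at 103, 89.9, 90.6 and 91.1 CPM and at 99.2, 92.7, 75.2 and 62.8 (−0.19, interval −0.50 to 0.12). Aars, the alanyl enzyme, had 0.15 (interval −0.20 to 0.51), Iars 0.13 (interval −0.33 to 0.58) and Yars −0.31 (interval −0.64 to 0.017). Of the other synthetases named by the rule, Vars, Nars, Qars, Lars and Mars1 had log2 fold changes from −0.027 to 0.29 and were not called. Sars is not among the members listed and is not analysed here.

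On the mTORC1 branch, which joins nutrient sensing to eIF4E, 4 of 23 tested genes were higher and 2 lower, with a median of 0.024, beside 15.8% and 13.2% of all genes, so the higher share was near that of all genes. Mknk2, a kinase of eIF4E, rose by 1.196 (SE 0.127, adjusted p 6e-07) and Sesn3, a brake on mTORC1, by 0.96 (SE 0.237, adjusted p 0.00465). Lamtor4 and Lamtor5, parts of the lysosomal platform of mTORC1, fell by 0.56 and 0.77, and Mtor had 0.011. Of 22 other tested genes of translation outside the symbol rule, 4 were higher and 1 lower, again near the share of all genes for higher calls and below it for lower calls. These were Larp1 (0.88), a repressor of mRNAs with a terminal oligopyrimidine tract, Pabpc1 (0.76), the poly(A)-binding protein, and Hbs1l (0.79) and Pelo (0.73), which rescue stalled ribosomes, with Aimp2 (−0.56), a scaffold of the synthetase complex, as the lower gene. Eprs, the glutamyl-prolyl synthetase, had 0.037.

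Against healthy spleen, a comparison that uses the same tumour libraries, 17 of 88 members were higher and 5 lower, beside 16.5% and 14% of all genes. By role these were 11 and 1 of initiation, 5 and 2 of elongation and release, and 1 and 2 of the synthetases. The groups were apart for 19 members with the tumour higher and 6 with it lower, beside 18.5% and 16.3% of all genes, and 26 members had an unadjusted p under 0.05, beside 41%. With upper-quartile scaling, which lowered the median of all genes from 0.016 to −0.084, 10 members were higher and 7 lower. Eif4a1 had 1.30 (SE 0.151, adjusted p 1.93e-06), or 2.47-fold, and Eif4e3 had 1.47 (SE 0.254, adjusted p 0.000184). Eif5a had 0.95 (SE 0.163, adjusted p 0.000175), Eif1 0.84 (SE 0.142, adjusted p 0.000154), Eif2ak2 1.26 and Eif2ak3 1.07. Eef1a1 and Eef1b2 had 0.63 and 0.60. Etf1 had 0.72 (call lost in 4 of 15 alternatives), Eef2 0.49 (lost in 10) and Eif5 0.56 (adjusted p 0.0494, lost in 11).

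Some members were called against healthy spleen and not against tumour-bearing spleen; whether the comparisons differ for them is the comparison of the spleens below. Eif2s3x, the X-linked gamma subunit of eIF2, was at 13.9, 11.2 and 8.25 CPM in healthy spleens, 20.6, 16.2, 20.1 and 14.5 in tumour-bearing spleens and 23.8, 21.7, 24.7 and 30.4 in tumours. The 3 groups did not overlap, with 1.22 (SE 0.273, adjusted p 0.00207) between tumour and healthy spleen and 0.50 (adjusted p 0.101) between tumour and tumour-bearing spleen. The eIF3 subunits Eif3h, Eif3l and Eif3m were called at 0.50, 0.46 and 0.54, and Eif4g3, an eIF4G scaffold, at 0.46. Of 15 alternatives, the call was lost in 5 for Eif3h, 10 for Eif3l, 6 for Eif3m and 6 for Eif4g3. Hars, the histidyl-tRNA synthetase, was at 70.9, 74.4 and 74.3 CPM in healthy spleens and 97.6, 94.2, 90.8 and 121 in tumours (0.46, SE 0.15, adjusted p 0.0269), the call of a single synthetase, which was lost in 10 of 15 alternatives. Among lower members, Eef1akmt1 had −0.52 (call lost in 6 of 15 alternatives), Eif2b1 −0.50 (lost in 8) and Cars2 −0.52 (lost in 8). Pars2, the mitochondrial prolyl-tRNA synthetase, fell by 2.14 (SE 0.48, adjusted p 0.00212), from 6, 21 and 10 counts in healthy spleens to 3, 1, 4 and 2 in tumours, a difference that rests on few counts.

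Eef2k, the kinase that phosphorylates eEF2 and slows elongation, was low in both groups from tumour-bearing mice. It was at 24.7, 27.3 and 31.4 CPM in healthy spleens, at 16, 16.2, 16.5 and 13 in tumour-bearing spleens and at 16.4, 11.6, 19.2 and 20.9 in tumours. Healthy spleens lay above all other libraries. The fall from healthy spleen to tumour was 0.68 on the log2 scale (SE 0.24, adjusted p 0.0382, lost in 7 of 15 alternatives), and that from healthy to tumour-bearing spleen was 0.85 (SE 0.234, adjusted p 0.0811).

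Between the spleens of tumour-bearing and healthy mice, edgeR called 0 of 88 members in either direction, beside 1.23% of all genes higher, 0.354% lower and 1.58% in either direction, and 10 members had an unadjusted p under 0.05, beside 11.2% of all genes. The groups were apart for 9 members with tumour-bearing spleens higher and 2 with them lower, beside 6.52% and 5.71% of all genes. DESeq2 called 1, Eif4a1. Eif4a1 had a log2 fold change of 0.57 (SE 0.149, adjusted p 0.062) with no overlap between the groups, and Eif5a had 0.39 (adjusted p 0.329), also without overlap. The division of the spleens was seen in these same counts, with 1 healthy library on one side of it. With the 7 spleen libraries alone and this division as a block, 4 members were higher and 2 lower, beside 5.35% and 2.99% of 8282 genes. Because the block was read from the counts it is fitted to, the adjusted p-values of this fit may be too small. Higher were Eif4a1 (0.59, adjusted p 0.0011), Eif5a (0.47, adjusted p 0.00484), Wars (0.45, adjusted p 0.0351) and Eif1b (0.41, adjusted p 0.0406), and lower were Eif5 (−0.66, adjusted p 0.000392) and Eef2k (−0.84, adjusted p 0.0173). Both member counts were below the shares of all genes in that fit.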

How the data were processed

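The authors deposited raw counts per gene symbol for the 11 NK libraries; per the submitters' processing notes, bcl2fastq, STAR 2.4.2a and HTSeq were used with mm10, and per the labels' protocols the libraries cover mRNA 3' ends. The annotation, strand setting and use of molecular identifiers are not given in the sources used here. Every listed gene reached 6 counts in some library. Counts were fitted in edgeR 4.0.16 (R 4.3.3) by a robust quasi-likelihood model with group as the only term, after filterByExpr (8471 genes kept) and TMM scaling, with calls at 0.05 after Benjamini-Hochberg adjustment. CPM use TMM sizes; intervals are 95%. DESeq2 1.42.0 and other settings served as alternatives, and the fit was tested on simulated data. Replicates within a group differed by more than sampling noise (chi-square per degree of freedom 2.00 to 7.37). The header lacked a tab between tumour replicates 3 and 4, so columns were read by position.

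Among the deposited rows, 686 genes stood out of alphabetical order, 3 of them members. Across 622 of them, levels correlated with the sCAF table (cancer-associated fibroblasts, used for this check alone) at a Spearman rho of 0.286 by row name and 0.0501 by place in the alphabet, against 0.654 over 8593 genes in order; names were used as deposited.

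Named members are, per class, up to 5 called genes at either end of each comparison, a fixed list of core factors, and the 5 with the highest mean CPM. Eef1d, Eef1e1, Eif2s2, Eif3e, Eif3l, Eif3m, Eif4a3, Eif4ebp3, Eif4enif1 and Eif4g3 fall outside it and were named after their values were seen. The members, lists and motifs were chosen with earlier results of these data known. RefSeq promoters (GRCm38.p6, the build of mm10) matched 69 of 93 members, and gene positions are from GENCODE M21.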

Additional observations from a re-analysis of the deposited data

Results flagged for a closer look

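In the 2 groups of 4 libraries, 51 described members were checked for a library far from the other 3 (a gap, as a share of the group's range, above Dixon's 95% critical value), which makes 102 sets of values; chance marks about 1 in 20 of them, and 4 were marked. Eef2k was at 13 CPM in tumour-bearing spleen replicate 4, where the other 3 lay between 16 and 16.5. Eif2ak4 was at 18.8 CPM in tumour replicate 2, the tumour library with the lowest total count, beside 9.02 to 9.84 in the others. Eif4e3 was at 34.9 CPM in tumour replicate 3, beside 55.7 to 59. Tars was at 103 CPM in tumour-bearing spleen replicate 1, beside 89.9 to 91.1.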

How the results depend on the processing

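Against tumour-bearing spleen, Eif1, Eif1b, Eif2ak2, Eif2ak3, Eif4a1, Eif4e3 and Eif5 kept direction and call in all 16 alternatives, and against healthy spleen Eef1a1, Eef1b2, Eif1, Eif4a1, Eif4e3 and Eif5a did in all 15, of which leaving out healthy replicate 1 and using healthy replicates 2 and 3 are the same fit. No called member changed sign. None of these alternatives covers whether the names of Eif4a1, Eif4e3 and Eif5, which stand out of alphabetical order, belong to their counts. Counts of called members that moved by over 1.5 times were, against healthy spleen, 10 higher with upper-quartile scaling, 1 lower with DESeq2, and 11 higher and 1 lower against healthy spleen 1 only. Against tumour-bearing spleens 1 and 2 only, 1 was lower. Between spleens, 1 was higher with DESeq2, and 4 were higher and 2 lower with the division of the spleens as a block. For these counts the cause was not tested, beyond the fewer spleen libraries in the one-sided comparisons. Leaving out single libraries gave 10 to 12 higher and 3 to 7 lower against tumour-bearing spleen (3 without its replicate 2 or 4, or tumour replicate 4). Against healthy spleen it gave 9 to 16 higher and 2 to 5 lower (9 higher and 2 lower without healthy replicate 2, 2 lower without healthy replicate 3 or tumour replicate 1 or 2, 3 without tumour replicate 4), and between spleens 0 to 0. Same-numbered libraries deviated from their group means with r of −0.353 to 0.501 across genes, with both signs among the pairs, so the numbers were not taken to pair samples; whether a spleen and a tumour of one number came from one mouse is not given in the sources used here. With replicate number as a block, 15 members were higher and 4 lower against tumour-bearing spleen, 17 and 3 against healthy spleen, and 0 and 0 between spleens. Against tumour-bearing spleen this block called Eif3e (0.80, adjusted p 0.0258), Eif3f (0.34, adjusted p 0.0424) and Eif3h (0.37, adjusted p 0.0358). For all genes, 949 were higher and 546 lower against tumour-bearing spleens 1 and 2, and 761 and 338 against healthy spleen 1; 782 were lower against healthy spleen without healthy replicate 2. Between spleens 443 were higher and 248 lower with the division as a block, 35 and 7 without healthy replicate 2, 59 and 8 without healthy replicate 3, and 18, 16 and 18 were lower without tumour-bearing replicate 1, without its replicate 4 and with the replicate block. Few counts limit Eif4g2, Pars2, Eif2s1, Eif2s2 and Eif2ak4.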
